A study of Mus musculus with 6 samples.

Results

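The path that turns cytosolic acetyl-CoA into palmitate was followed in alveolar type II cells of Stat3Δ/Δ mice and controls through 9 genes: the transcription factor genes Srebf1 and Mlxipl, the enzyme genes Acly, Acss2, Acaca, Acacb, Fasn and Me1, and the regulator gene Thrsp. Every probe set whose annotation names 1 of these genes and no other was taken, which gave 21 of the 45037 probe sets tested and 9 of the 18193 genes with a probe set of their own. The 3 Stat3Δ/Δ pools came from triple-transgenic mice with SP-C-rtTA and (tetO)7CMV-Cre on Stat3flx/flx alleles. There the SP-C promoter drives the doxycycline-dependent activator of Cre, which removes part of Stat3 in respiratory epithelial cells, type II cells among them. For the 3 control pools the source label names mice with both transgenes and no floxed Stat3, whereas the methods describe non-deleted littermates that could carry Stat3flx/flx, and which alleles each control mouse had is not settled here. The dams received doxycycline in the food before and after birth, per the methods. All mice were 8 weeks old, cells of 3 mice made up each pool, RNA was taken 2 hours after isolation by collagenase and differential plating, and each pool had its own MOE430 array. At their brightest probe sets 8 of these genes had log2 fold changes between -1.49 and -0.11, Me1 was at -0.06, and none passed the false discovery rate.

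Palmitate is built from acetyl-CoA in the cytosol. Acly cleaves citrate and Acss2 activates acetate to supply acetyl-CoA, Acaca and Acacb carboxylate it to malonyl-CoA, Fasn condenses the malonyl units with NADPH as reductant, and Me1 is one of the enzymes that make this NADPH. The protein of Srebf1 is released from membranes of the endoplasmic reticulum by proteolysis and activates these genes, and in type II cells palmitate is the main acyl chain of the phosphatidylcholine of surfactant.

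The promoter windows of 4 of these genes are printed, that of the regulator Srebf1 and those of Acss2, Fasn and Acacb, the enzyme genes with the lowest fold changes or with groups that did not overlap. CCAAT is shown because NF-Y, a partner of SREBP proteins, binds it, and TCACCC because a common form of the sterol regulatory element begins with it. Each runs from 250 bases before to 50 bases after a RefSeq start on GRCm38.p6 and is written 5′ to 3′ on the gene's own strand, with every TCACCC and every CCAAT in capitals, read on both strands, so that ATTGG is CCAAT on the other strand. The windows are chr11:60210422-60210721 on the minus strand for Srebf1, at the most downstream of its 3 starts, chr2:155517793-155518092 on the plus strand for Acss2, chr11:120824498-120824797 on the minus strand for Fasn and chr5:114165268-114165567 on the plus strand for Acacb.
Srebf1: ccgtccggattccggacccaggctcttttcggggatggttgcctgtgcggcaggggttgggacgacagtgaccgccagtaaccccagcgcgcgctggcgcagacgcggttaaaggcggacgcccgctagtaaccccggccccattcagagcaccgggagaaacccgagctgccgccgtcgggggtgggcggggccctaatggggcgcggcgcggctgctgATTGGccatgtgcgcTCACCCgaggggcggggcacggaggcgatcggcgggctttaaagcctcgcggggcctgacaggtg
Acss2: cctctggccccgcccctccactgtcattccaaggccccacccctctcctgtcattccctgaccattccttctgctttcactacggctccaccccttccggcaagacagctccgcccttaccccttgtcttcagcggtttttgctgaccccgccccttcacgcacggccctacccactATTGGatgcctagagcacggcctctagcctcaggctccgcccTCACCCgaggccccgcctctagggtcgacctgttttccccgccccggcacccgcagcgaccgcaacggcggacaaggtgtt
Fasn: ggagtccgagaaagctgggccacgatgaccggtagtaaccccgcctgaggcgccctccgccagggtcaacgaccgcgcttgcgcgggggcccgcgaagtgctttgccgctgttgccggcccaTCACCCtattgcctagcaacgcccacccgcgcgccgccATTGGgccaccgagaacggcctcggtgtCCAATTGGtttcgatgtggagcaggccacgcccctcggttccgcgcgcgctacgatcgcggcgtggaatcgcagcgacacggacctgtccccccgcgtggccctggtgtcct
Acacb: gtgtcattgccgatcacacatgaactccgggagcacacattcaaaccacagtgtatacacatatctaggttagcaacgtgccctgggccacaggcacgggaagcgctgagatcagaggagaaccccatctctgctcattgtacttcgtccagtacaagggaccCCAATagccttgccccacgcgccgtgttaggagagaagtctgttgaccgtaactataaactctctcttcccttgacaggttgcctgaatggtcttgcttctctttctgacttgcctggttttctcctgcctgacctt
TCACCC begins at position -15 from the start in Srebf1, -31 in Acss2 and -128 in Fasn, and the Acacb window holds none. The CCAAT run begins at position -30 in Srebf1, -73 in Acss2 and -87 in Acacb, and Fasn holds 3, of which a pair on opposite strands overlap as CCAATTGG. All 9 genes had a window, 13 windows in all because Srebf1, Mlxipl and Me1 have several starts. CCAAT was present in 9 of the 13 windows, in 8 of the 9 genes, against 37.4% of all 32851 windows of the table. The letters TCACNCCAC, the sterol regulatory element, were present in 1 of the 13, at a start of Mlxipl, against 1.24% of all windows. The shorter TCACCC, chosen after the windows had been seen, was present in 4 of the 13, in Srebf1, Acss2, Fasn and Me1, against 16.2% of all. The GC box GGGCGG was present in 6 of the 13 against 35.7% of all, and CANNTG, the E-box, in 10 of the 13 against 72.3%. TTCNNNGAA, the letters of a STAT element, were present in none of the 13 and in 8.3% of all windows, which says only that these letters are not in these windows. Each motif was searched on both strands, and the matches are descriptions of letters.

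Values are deposited signals, linear and scaled to the same trimmed mean of 1500 on each array, and tests were made with limma after 70 was added, log2 taken and the arrays quantile normalized. Fold changes are Stat3Δ/Δ over control on that log2(signal + 70) scale, where changes of dim probe sets come out too small. Calls needed 3 things, an unadjusted p of at most 0.05, a false discovery rate up to 10% and a fold of 1.5 or more. The titles carry a leading number that Stat3Δ/Δ pools 1 and 2 share with control pool 3, that is another for control pools 1 and 2 and another again for Stat3Δ/Δ pool 3, and no source used here says what it means. The fold change within the 3 arrays that share the number is given beside the results as a value with no test. Each pool is a separate pellet of 3 mice, and precision is limited by having 6 arrays.

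Of 4 Stat3 probe sets, both bright ones read lower in all 3 Stat3Δ/Δ pools than in any control pool, while the 2 dimmer ones had log2 fold changes of 0.60 (unadjusted p = 0.0688) and -0.05 with groups that overlap, and their place relative to the deleted part was not analysed here. The brightest had signals of 26285, 20128 and 25650 in Stat3Δ/Δ pools 1 to 3, against 49489, 41544 and 35080 in control pools 1 to 3, which gave a log2 fold change of -0.71 ± 0.26 (standard error, SE; limma, adjusted p = 0.532), and the other bright one gave -0.80 ± 0.25 (adjusted p = 0.502). The type II cell markers stood high in both groups, Sftpc for surfactant protein C among them, with a summed signal of 9 genes between 677573 and 908400 in Stat3Δ/Δ pools and between 820474 and 906629 in control pools. The 9 had a median log2 fold change of -0.04, and 1 of them, the lipid transporter gene Abca3 of lamellar bodies, was lower at an unadjusted p of 0.0193 (log2 fold change -0.73, adjusted p = 0.526), with signals of 29374, 33417 and 41561 in Stat3Δ/Δ pools and 54889, 63244 and 67886 in control pools, which did not overlap.

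Markers of other cells moved with the groups. All 8 macrophage markers measured were above 0, 2 of them higher at an unadjusted p of at most 0.05, with a median log2 fold change of 0.50 over all arrays and 0.52 within the shared title number (summed signal 102798 to 135564 in Stat3Δ/Δ, 75939 to 92217 in control). Of 7 neutrophil markers, 4 were above 0 and 3 below. Of the 7, 3 were higher at that p, with a median of 0.48 and 0.28 within the shared number (summed signal 30434 to 35511 in Stat3Δ/Δ, 18811 to 23599 in control). S100a8, a calcium-binding protein of neutrophil granulocytes, had a log2 fold change of 1.68, whereas Ltf of the same list had -0.87. Of 8 fibroblast markers 7 were below 0 and 6 lower at that p, with a median of -1.54 and -0.77 within the shared number (summed signal 7903 to 16765 in Stat3Δ/Δ, 23930 to 45986 in control). All 7 ciliated cell markers were below 0 and 5 lower at that p, with a median of -1.03 and -0.85 within the shared number. Macrophage and neutrophil medians were thus above 0, and fibroblast and ciliated cell medians below it, in both readings. Of adipocytes, cells rich in these enzymes, the 6 markers measured had a median of 0.17 over all arrays and -0.50 within the shared number, with 4 above and 2 below 0 and none past that p (summed signal 1497 to 1930 in Stat3Δ/Δ, 1179 to 2216 in control). The adipokine genes Adipoq and Lep lay under the median signal of the array in every pool, and Adipoq had signals of 126, 6.7 and 108 in Stat3Δ/Δ pools and 34.7, 33.2 and 81.9 in control pools. The lipid droplet gene Cidec lay above it in every pool, with signals of 390, 1207 and 432 in Stat3Δ/Δ pools and 730, 1070 and 1104 in control pools, and a log2 fold change of -0.72 (unadjusted p = 0.124). Their part in the results on fatty acid genes was not tested, and in these pools fewer cells of a type and less RNA per cell cannot be told apart. The log2 ratio of 3′ to 5′ control signals, a measure of RNA integrity, was 0.39 ± 0.046 in Stat3Δ/Δ and 0.64 ± 0.17 in control pools for Actb, and -0.41 ± 0.099 in Stat3Δ/Δ and 0.020 ± 0.26 in control pools for Gapdh (SD, n = 3 each, exact two-sided permutation p = 0.1 for each, the smallest that 3 against 3 allows). Its part in the results was not tested either.

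Across the 21 probe sets, no member was called in either direction, where 0.00222% of all probe sets were called higher and 0.0% lower. At an unadjusted p of at most 0.05, 1 member was lower, against 4.27% of all probe sets, and none was higher, against 4.18% of all. The log2 fold change was below 0 for 18 of the 21, against 51.7% of all probe sets, and the median was -0.34, against -0.017 over all. Among the 15 members brighter than the median probe set the median was -0.41, and among the 6 dimmer ones it was -0.31. Taken by the brightest probe set, 9 of 9 genes were below 0, against 59.3% of all genes, with a median of -0.49 against -0.085 over all genes. This depends on the probe set, as Acaca and Me1 were above 0 by the mean of their probe sets, at 0.0072 and 0.13. At that unadjusted p 1 of the 9 was lower by its brightest probe set, against 5.61% of all genes, and none higher, against 2.19%. The groups did not overlap, with Stat3Δ/Δ lower, for 2 of the 21 probe sets, against 7.66% of all, and for none with Stat3Δ/Δ higher, against 5.99%. Both were the brightest of their genes, Fasn and Acacb, which makes 2 of 9 genes against 10.2% of all genes, with none higher against 4.23%. The number past the unadjusted p thus stood near the background. Dropping control pool 3 gave 5 of the 21 lower at that p, where 5.12% of all probe sets were lower. Dropping Stat3Δ/Δ pool 3 gave 4, where 5.28% of all were lower. The count fell to 0 on dropping control pool 1 or 2, where 3.17% and 3.16% of all were lower. The median of the 21 moved to -0.09 once control pool 1 was dropped, and to -0.17 once Stat3Δ/Δ pool 1 was dropped. By their brightest probe sets 7 of the 9 genes were below 0 when Stat3Δ/Δ pool 2 or control pool 1 was left out. Among the 3 arrays with a common leading title number the median of the 21 was -0.19, with 14 below 0, and 8 of the 9 genes were below 0 by their brightest probe sets.

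**Figure D1:**
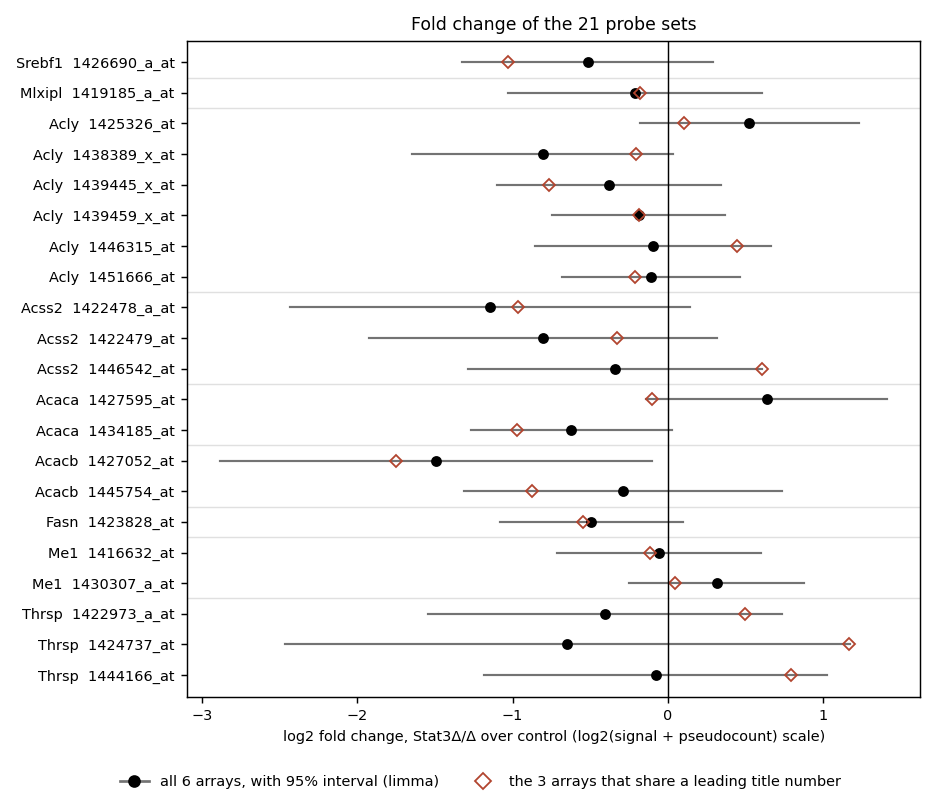
Log2 fold change of Stat3Δ/Δ over control for the 21 probe sets (filled circles, with the 95% interval from limma over all 6 arrays) and among the 3 arrays with a common leading title number (open diamonds). The interval leaves out 0 for Acacb 1427052_at only, 18 circles lie left of 0, and the diamonds of the 3 Thrsp probe sets lie right of it.

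Srebf1 encodes the membrane-bound transcription factor that is released to switch on the other genes of the path, and 1 probe set measured it. 1426690_a_at had signals of 7356, 10427 and 18708 in Stat3Δ/Δ pools 1 to 3, against 17675, 14450 and 17320 in control pools 1 to 3. Stat3Δ/Δ pools 1 and 2 lay below every control, whereas Stat3Δ/Δ pool 3 was the highest array of the 6, so that the groups overlap. On the normalized log2 scale pool 3 lay 1.03 above the mean of Stat3Δ/Δ pools 1 and 2. The log2 fold change was -0.52 (SE 0.35, 95% interval -1.32 to 0.29, unadjusted p = 0.181 and adjusted p = 0.727). Without Stat3Δ/Δ pool 3 it was -0.85 (unadjusted p = 0.0227, adjusted p = 0.452) and without Stat3Δ/Δ pool 1 it was -0.22, and within the shared title number it was -1.03. The annotated starts of Srebf1 give more than one promoter, and a signal that sums the transcripts of the gene does not tell them apart.

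Mlxipl encodes ChREBP, the glucose-responsive factor that acts on the same enzymes in liver. 1419185_a_at had signals of 311, 330 and 416 in Stat3Δ/Δ pools and 595, 232 and 369 in control pools, close to the median of all probe sets. The Stat3Δ/Δ values all lay between the lowest and the highest control. The difference was -0.21 on the log2 scale (SE 0.36, adjusted p = 0.902), and it was 0.14 without control pool 1.

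**Figure D2:**
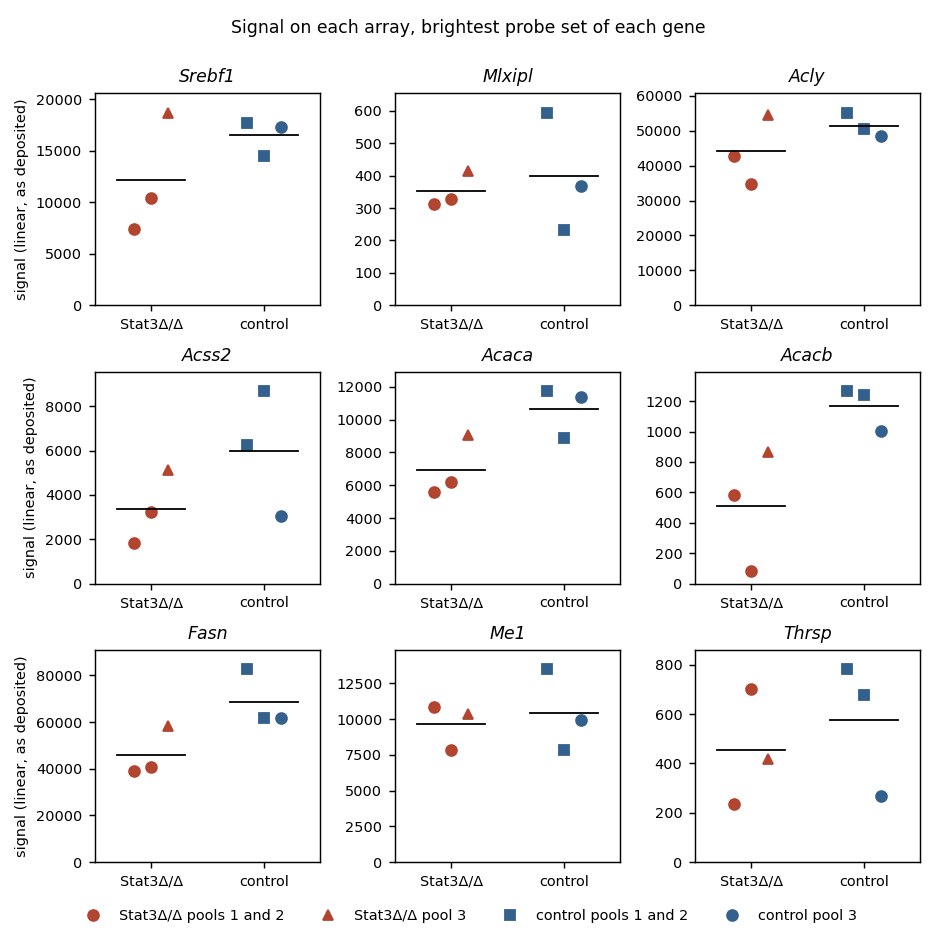
Deposited signal (linear, each array scaled to one trimmed mean) of the brightest probe set of each gene in the 3 Stat3Δ/Δ pools and the 3 control pools, with circles for the 3 arrays with a common leading title number, a triangle for Stat3Δ/Δ pool 3, squares for control pools 1 and 2 and a bar at the group mean. Each panel has its own axis, and the groups stand apart for Fasn and Acacb, while Stat3Δ/Δ pool 3 lies among or near the controls for Srebf1, Acly and Acaca.

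Acly, ATP citrate lyase, supplies most cytosolic acetyl-CoA from citrate, and its 6 probe sets did not move one way. The brightest, 1451666_at, had signals of 42819, 34873 and 54520 in Stat3Δ/Δ pools and 55210, 50351 and 48503 in control pools. Its control arrays lay close together and the Stat3Δ/Δ arrays spread around them, with a log2 fold change of -0.11 (SE 0.25, adjusted p = 0.934). 1439459_x_at, a probe set whose suffix marks probes shared with other sequences, had 26518, 25671 and 31213 in Stat3Δ/Δ pools and 41726, 29762 and 30841 in control pools, with a log2 fold change of -0.19 (SE 0.24). 1425326_at pointed the other way, with 15563, 10228 and 19418 in Stat3Δ/Δ pools and 10438, 8896 and 11889 in control pools, and a log2 fold change of 0.52 (SE 0.31, adjusted p = 0.691). Within the shared title number the same probe set gave 0.10. The 3 dim probe sets of Acly had log2 fold changes of -0.81 (1438389_x_at, SE 0.37, unadjusted p = 0.0583), -0.38 (1439445_x_at) and -0.09 (1446315_at), at signals of 1.1 to 270 over the 6 arrays. The direction of Acly thus depends on the probe set, and the interval of the brightest, -0.68 to 0.46, holds shifts either way.

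Acss2, the cytosolic and nuclear acetyl-CoA synthetase, makes acetyl-CoA from acetate. Its brighter probe sets gave like pictures. 1422479_at had signals of 1835, 3221 and 5104 in Stat3Δ/Δ pools and 6246, 8692 and 3036 in control pools, and 1422478_a_at had 1118, 3429 and 5045 in Stat3Δ/Δ pools and 6687, 8513 and 3824 in control pools. Control pools 1 and 2 were the highest arrays in both, while control pool 3 lay below Stat3Δ/Δ pool 3. The log2 fold changes were -0.81 (SE 0.49, adjusted p = 0.699) and -1.14 (SE 0.56, unadjusted p = 0.0746, adjusted p = 0.634), the widest apart of the 9 genes after Acacb. Within the shared title number they were -0.33 and -0.97. Without Stat3Δ/Δ pool 1 they were -0.42 and -0.52, and without control pool 3 they were -1.23 and -1.47. The dim 1446542_at had signals of 71.8, 77.0 and 84.1 in Stat3Δ/Δ pools and 170, 151 and 21.3 in control pools, with a log2 fold change of -0.34 over all arrays and 0.60 within the shared title number. Another probe set names Acss2 together with a second gene and was left out.

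Acaca and Acacb encode the acetyl-CoA carboxylases, the cytosolic one that feeds fatty acid synthesis and the one at the mitochondrial surface, whose malonyl-CoA restrains entry of fatty acids into oxidation. The brighter Acaca probe set, 1434185_at, had signals of 5601, 6183 and 9044 in Stat3Δ/Δ pools and 11747, 8866 and 11359 in control pools. Only Stat3Δ/Δ pool 3 and control pool 2 crossed. The log2 fold change was -0.62 (SE 0.28, 95% interval -1.27 to 0.03, unadjusted p = 0.0579, adjusted p = 0.605 from limma). It was -0.97 within the shared title number and -0.82 without Stat3Δ/Δ pool 3 (unadjusted p = 0.0202). The dimmer 1427595_at had 870, 724 and 1214 in Stat3Δ/Δ pools and 435, 364 and 865 in control pools, with a log2 fold change of 0.64 (SE 0.34, adjusted p = 0.658). Within the shared title number, which leaves out control pools 1 and 2 and Stat3Δ/Δ pool 3, the value was -0.10. The mean of the Acaca probe sets was 0.0072, so a statement on the gene depends on which is read, and where they lie in the transcripts was not analysed here.

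The Acacb probe set 1427052_at had the largest difference of the 21. Its signals were 584, 83.0 and 865 in Stat3Δ/Δ pools and 1267, 1242 and 1003 in control pools. Every Stat3Δ/Δ pool lay below every control, and the spread among Stat3Δ/Δ pools was wide, with pool 2 at the level of dim probe sets. The log2 fold change was -1.49 (SE 0.60, 95% interval -2.88 to -0.10, unadjusted p = 0.0381, adjusted p = 0.570 from limma). Without Stat3Δ/Δ pool 2 it was -0.73 (unadjusted p = 0.0724). Without control pools 1, 2 and 3 in turn it was -1.38, -1.45 and -1.64, with an unadjusted p of 0.0941, 0.0817 and 0.0525, and it was -1.72 without Stat3Δ/Δ pool 1 and -2.05 without Stat3Δ/Δ pool 3. Within the shared title number it was -1.75. The unadjusted p was also above 0.05 by the methods' t-test (0.137), with a pseudocount of 1 (0.0843) and with a fixed block on the title number (0.0796). The dim 1445754_at had 62.1, 167 and 128 in Stat3Δ/Δ pools and 188, 39.0 and 259 in control pools, which overlap, with a log2 fold change of -0.29 (SE 0.45).

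Fasn encodes the multifunctional synthase that releases palmitate, and 1 probe set measured it. Signals of 1423828_at were 38968, 40580 and 58217 in Stat3Δ/Δ pools and 82620, 61647 and 61931 in control pools. Every Stat3Δ/Δ pool was below every control, with Stat3Δ/Δ pool 3 close under the nearest control. The log2 fold change was -0.49 (SE 0.26, 95% interval -1.08 to 0.10, unadjusted p = 0.0904, adjusted p = 0.654 from limma), so the difference did not pass the test. The unadjusted p depended on the setting and was 0.0474 by the methods' t-test, 0.0166 with a trend and robust variance, 0.0488 with arrays centred on their medians and 0.0240 with the median signal as pseudocount, with an adjusted p of at least 0.4725 in these 4. The log2 fold change lay between -0.61 and -0.37 when each pool was left out in turn and was -0.55 within the shared title number.

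Me1, the cytosolic malic enzyme, turns malate into pyruvate and makes NADPH. 1416632_at had signals of 10816, 7817 and 10329 in Stat3Δ/Δ pools and 13478, 7842 and 9895 in control pools, and 1430307_a_at had 9939, 8793 and 10497 in Stat3Δ/Δ pools and 7468, 7300 and 9034 in control pools. The groups overlap in both. The log2 fold changes were -0.06 (SE 0.29) and 0.31 (SE 0.25, adjusted p = 0.761), with 95% intervals of -0.72 to 0.60 and -0.25 to 0.88.

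Thrsp, the thyroid hormone responsive protein known as Spot 14, acts with its paralogue Mid1ip1 on acetyl-CoA carboxylase. 1422973_a_at had signals of 237, 700.3 and 420 in Stat3Δ/Δ pools and 782, 679 and 266 in control pools. 1424737_at had 137, 715 and 318 in Stat3Δ/Δ pools and 1093, 899 and 102 in control pools. Control pool 3 was the lowest control in both, and its log2 signal minus the mean of control pools 1 and 2 was -1.42 and -2.74. Stat3Δ/Δ pool 2 was the highest Stat3Δ/Δ array. The log2 fold changes over all arrays were -0.41 (SE 0.50) and -0.65 (SE 0.79), and within the shared title number they were 0.50 and 1.17, the opposite sign. The dim 1444166_at gave -0.08 over all arrays and 0.79 within the shared title number. No direction for Thrsp holds across these settings.

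**Figure D3:**
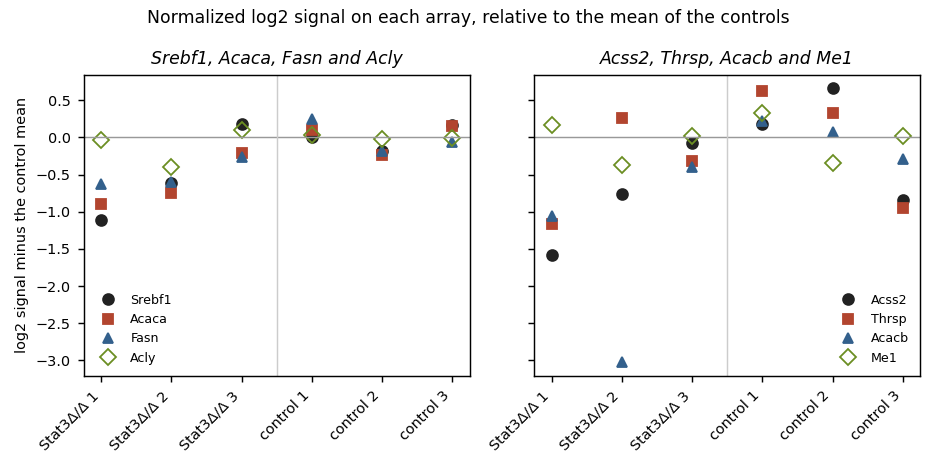
Normalized log2 signal of the brightest probe set minus the mean of the 3 controls, for each of the 6 arrays, with Stat3Δ/Δ pools left of control pools. Srebf1, Acaca and Fasn are low in Stat3Δ/Δ pools 1 and 2 and near the controls in Stat3Δ/Δ pool 3, whereas control pool 3 is low for Acss2 and Thrsp and Stat3Δ/Δ pool 2 is low for Acacb.

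The members fell into patterns over the arrays, given as a description over 6 arrays that share their group difference. Pearson's r between the brightest probe sets of Srebf1 and Acaca was 0.92, between Acaca and Fasn 0.93 and between Srebf1 and Fasn 0.78. Acss2 followed Thrsp (r = 0.78) more than Srebf1 (r = 0.64), and Acly followed Acacb (r = 0.91). Me1 did not follow Srebf1 (r = 0.092). Among 10142 genes with signals above the array medians on all 6 arrays, the 5 most like Srebf1 were Pomgnt2 (r = 0.998), a glycosyltransferase gene, Tmem164 (0.997), the spliceosome helicase gene Snrnp200 (0.989), the interferon regulatory factor gene Irf3 (0.989) and Tmem203 (0.988). In the same order Acaca was at rank 327, Fasn at 1434, Acss2 at 2485, Acly at 3576 and Me1 at 5666.

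Around the 9 genes, 62 of 69 listed genes of the neighbouring steps were measured by a probe set of their own, each by its brightest. Of these 42 were below 0, where 59.3% of all genes were. At an unadjusted p of at most 0.05, 3 were lower and none higher, where 5.61% and 2.19% of all genes were. The median log2 fold change was -0.18, against -0.085 over all genes. No gene of these lists was called. The 3 lower genes are named here.

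H6pd, the NADPH-making hexose-6-phosphate dehydrogenase of the endoplasmic reticulum, had signals of 6081, 7443 and 12880 in Stat3Δ/Δ pools and 18817, 15770 and 16477 in control pools. All Stat3Δ/Δ pools lay below all controls, with a log2 fold change of -0.9993 (SE 0.32, unadjusted p = 0.0130, adjusted p = 0.511 from limma), and -1.35 within the shared title number. It belongs to the enzymes of NADPH supply, of which 10 of 11 measured genes were below 0 at their brightest probe sets, with a median of -0.28. G6pdx of that list had no probe set of its own. By the mean of their probe sets Nnt and Me2 were above 0, at 0.19 and 0.0078. Of the other measured genes, Pgd of the pentose phosphate path had -0.64 and Tkt -0.54, neither past an unadjusted p of 0.05.

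Mcat, the malonyl transferase of mitochondrial fatty acid synthesis, had signals of 772, 935 and 1592 in Stat3Δ/Δ pools and 2375, 1965 and 2162 in control pools. These groups did not overlap, with a log2 fold change of -1.03 (SE 0.33, unadjusted p = 0.0139, adjusted p = 0.515) and -1.32 within the shared title number. The 6 measured genes of that path split evenly around 0, with a median of -0.10. Aacs, which activates acetoacetate for lipid synthesis, had 1586, 1391 and 2525 in Stat3Δ/Δ pools and 4064, 3641 and 2901 in control pools, with a log2 fold change of -0.96 (SE 0.31, unadjusted p = 0.0151, adjusted p = 0.516) at its brightest probe set, while its 3 probe sets ranged up to 0.071. The 5 genes of other acetyl-CoA routes had a median of -0.31.

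The genes that process SREBP proteins or share promoters with them, 19 measured, had 14 below 0, a median of -0.17 and none at an unadjusted p of at most 0.05. Scap, the escort of SREBP to the Golgi, had a log2 fold change of -0.51 (unadjusted p = 0.113), with its other probe set at 0.56. Srebf2, the factor of the sterol branch, had -0.17 and the retention factor Insig1 had -0.37. Citrate supply, 10 measured genes with a median of -0.09, held values of either sign. The citrate carrier Slc25a1 had -0.54 (unadjusted p = 0.0973), pyruvate carboxylase Pcx -0.70 (0.0571) and the lipoamide dehydrogenase Dld 0.53 (0.0512). The other probe set of Dld was at -0.55. Acetyl-CoA carboxylase regulators, 11 measured, had 6 below 0 and a median of -0.14. In that list the malonyl-CoA decarboxylase gene Mlycd had -0.62 (0.0677), and Mid1ip1, the paralogue of Thrsp, had -0.34. The genes named in this paragraph were chosen after their values were seen, and none passed the test.

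**Figure D4:**
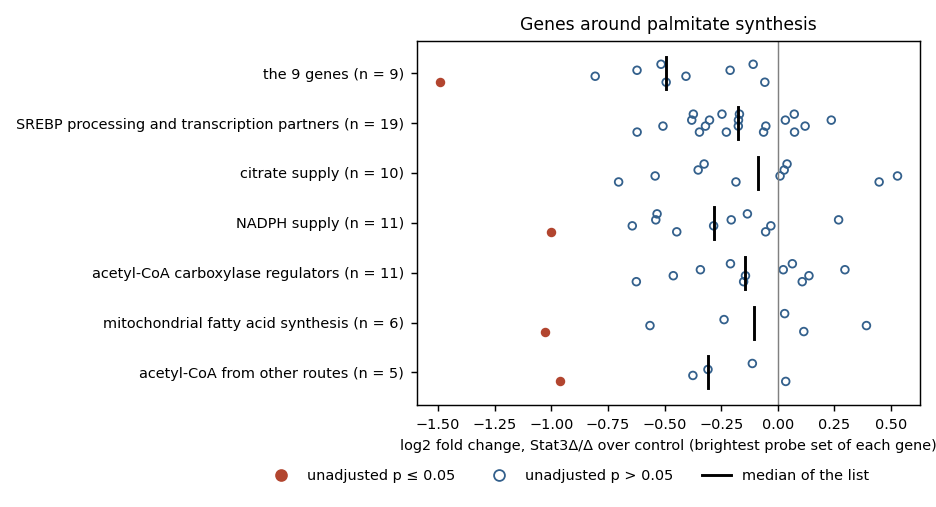
Log2 fold change of Stat3Δ/Δ over control for the 9 genes and for the measured genes of 6 neighbouring lists, each gene by its brightest probe set, with a bar at the median of each list and filled points where the unadjusted p is at most 0.05. The median of the 9 genes is -0.49, those of the lists lie between -0.31 and -0.09, and the filled points are Acacb, H6pd, Mcat and Aacs.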

How the data were processed

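Signals were measured on 6 MOE430 arrays, 3 of Stat3Δ/Δ and 3 of control pools, which were assigned to groups from their titles. The deposited intensities are linear; the authors obtained 1 signal for each probe set from Affymetrix Microarray Suite 5.0, scaled so that the 2% trimmed mean of each array was 1500. The RMA values that the study tested were not used here. Of 45101 probe sets, 64 controls were left out. A pseudocount of 70, their 20th percentile, went into each signal before log2 and quantile normalization, and a limma model (3.58.1, R 4.3.3) with the group as its term was fitted over 45037 probe sets, with Benjamini-Hochberg adjustment over all of them. The annotation gave 34945 probe sets 1 gene, 932 several and 9160 none; 34741 matched the gene table by gene ID. The fit and the calls were also run on simulated data. The changes put in there were larger than any measured for the members, so they cannot tell how often changes of the members' size are missed. Each gene of a list was read by its probe set of highest mean. Members and lists were chosen with earlier results of these data known. The genes named were every member probe set, Stat3, up to 3 genes of each pathway list with the smallest unadjusted p of at most 0.05, and the 5 genes most correlated with Srebf1. Other genes were chosen after their values were seen. Median signals were 337.7 to 381.2 on Stat3Δ/Δ arrays and 282.8 to 360.5 on control arrays. Alternatives changed the pseudocount, the normalization, a filter on low signal, the variance model, array weights, the test, blocks and the arrays left out. Promoters came from RefSeq GRCm38.p6. Other software was matplotlib 3.10.9, scipy 1.17.1, numpy 2.4.6, pandas 2.3.3 and Python 3.11.15.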

Additional observations from a re-analysis of the deposited data

How the results depend on the processing

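No member probe set was called under any of the 18 alternatives, and 346 of 372 pairs of a member probe set and an alternative kept the direction. Some of these pairs could not reverse. The trend and robust variance, the t-test, the replicate block and the filter on low signal leave each fold change as it is. The fixed block repeats the fold changes within the shared title number. The number lower at an unadjusted p of at most 0.05 was 1, against 4.27% of all probe sets. It became 4 with array weights (6.27% of all), 4 with a trend and robust variance (4.28%) and 3 with arrays centred on their medians (5.08%). With the median signal as pseudocount it was 3 (4.88%), and with a filter on low signal 2 (5.33% of the probe sets kept). It was 2 with a fixed block on the leading title number (3.07%) and 0 with a pseudocount of 1 (3.88%). By an ordinary t-test with pooled variance the number stayed 1 (4.09% of all), but this was Fasn and not Acacb. With each pool left out the number lower ranged from 0 to 5, where 2.97% to 5.28% of all probe sets were lower. It was 5 without control pool 3 (5.12% of all), 4 without Stat3Δ/Δ pool 3 (5.28%), and 0 when control pool 1 or 2 was left out (3.17% and 3.16%). The number higher ranged from 0 to 1, with 1 when Stat3Δ/Δ pool 2 or control pool 3 was left out. Centring moved the median of all probe sets to -0.096 and that of the members to -0.42, and gave 5 neighbouring genes lower at that p in place of 3. Within the shared title number and in the fixed block, 6 probe sets changed sign, to 0.45 for Acly 1446315_at, 0.60 for Acss2 1446542_at, -0.10 for Acaca 1427595_at and 0.50, 1.17 and 0.79 for Thrsp 1422973_a_at, 1424737_at and 1444166_at. Dim probe sets also changed sign elsewhere: Thrsp 1444166_at gave 0.18 with array weights, 0.012 with a random block, 0.048 without normalization and 0.0037 with the median signal as pseudocount, Acly 1446315_at gave 0.052 without normalization, and Acacb 1445754_at gave 0.064 with array weights. Leaving out each pool gave -0.47 to 0.14 for Mlxipl 1419185_a_at, -0.35 to 0.23 for Acly 1446315_at, -0.22 to 0.037 for Acly 1451666_at, -0.23 to 0.11 for Me1 1416632_at and -0.60 to 0.29 for Thrsp 1444166_at. The causes were not tested. Same-numbered pools did not deviate together (correlations of -0.084, -0.0088 and -0.24), but 3 correlations cannot settle whether the numbers pair them. Control pool 3 had correlations of 0.13 with Stat3Δ/Δ pool 1 and 0.14 with Stat3Δ/Δ pool 2, which share its title number. The highest correlation, 0.19, was between Stat3Δ/Δ pool 3 and control pool 1, whose title numbers differ, so these values do not tell what the number means. A replicate block cannot change a fold change in this balanced design, so the members' median stayed at -0.34. With that block 1 was lower at that p, against 3.32% of all probe sets. The 6 arrays and the dim signals of 6 members limit what can be seen.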
